A study of Homo sapiens with 12 samples.

Results

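The genes described here are 9 genes of the epithelial cell junction: the claudins CLDN1, CLDN3, CLDN4, CLDN7 and CLDN8, occludin (OCLN), the zonula occludens scaffolds TJP1 and TJP3, and E-cadherin (CDH1). They were taken by symbol from a table of 20114 genes, and all 9 were found there and had enough counts to be tested, as did 13872 genes in all. RNA came from T47D, an established line of human breast carcinoma cells with progesterone and estrogen receptors. The cells, kept in stripped serum and then starved of serum, were given vehicle, 100 pM progestin or 10 nM progestin and harvested at 6 h or 18 h. Each of these 6 groups had 2 libraries, numbered replicate 1 and replicate 3, and the ligand is given only as progestin. No label says that replicates are separate cultures, so the p-values measure the spread between these libraries only.

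Tight junctions seal neighbouring epithelial cells near their apical border. Claudins form the strands of the seal and set which ions pass, occludin lies in the same strands, and the zonula occludens proteins tie both to actin. E-cadherin lies just below, in the adherens junction, where it binds its counterpart on the next cell and holds catenins on its inner side. In the mammary gland these junctions separate milk from tissue fluid, and in mice progesterone is known to regulate their permeability.

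Total counts ran from 34204970 to 41373890 per library. Levels are given as CPM, for replicate 1 and then replicate 3. CPM are the counts scaled to a common total of the tested genes, after that total was multiplied by the library's TMM factor. This scaling factor ran from 0.933 (10 nM 6 h replicate 3) to 1.039 (vehicle 18 h replicate 3). A gene is called where the adjusted p of edgeR's quasi-likelihood test lies under 0.05, and changes are log2 fold changes ± SE. Luminal epithelial markers summed to between 6659 and 11685 CPM (8 of 8 listed genes present). Immune markers summed to at most 6.28 CPM and endothelial markers to at most 0.93 CPM. Mesenchymal markers summed to between 139.9 and 329.9 CPM, mostly from FN1 (62.9 to 206 CPM) and COL1A1 (66.1 to 114 CPM), while CDH11 had no count in any of the 12 libraries and COL1A2 at most 1. Libraries of replicate 3 and replicate 1 differed in related ways in all groups, and values that depend on this are given in both forms. In such bulk RNA, fewer cells that express a gene and less of its RNA per cell cannot be told apart.

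At 6 h, 10 nM progestin lowered CLDN1 by 1.14 ± 0.25 on the log2 scale (2.21-fold, edgeR adjusted p = 0.0058) and TJP3 by 0.90 ± 0.12 (1.86-fold, edgeR adjusted p = 0.00037). These were the 2 called genes of the 9, and both were lower. Over all genes tested, 19.4% were lower and 22.6% higher in the same comparison, so the 2 of 9 called lower are near the share of all genes. None of the 9 was called higher in this fit, which leaves replicate number out. The median change of the 9 genes was -0.24 and that of all genes tested -0.02. At 100 pM for 6 h none of the 9 was called by edgeR or by DESeq2, and none had an unadjusted p under 0.05, against 2.88% of all genes higher and 0.606% lower. Against 100 pM, 10 nM lowered CLDN1 by 0.82 ± 0.24 (edgeR adjusted p = 0.028) and TJP3 by 1.01 ± 0.12 (2.01-fold, edgeR adjusted p = 0.00026). Here 16.8% of all genes were lower and 20.1% higher.

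At 18 h, 10 nM raised CLDN8 by 3.23 ± 0.57 (9.35-fold, edgeR adjusted p = 0.0027) and lowered CLDN1 by 0.93 ± 0.25 (1.91-fold, edgeR adjusted p = 0.018) and CLDN3 by 0.99 ± 0.21 (1.99-fold, edgeR adjusted p = 0.0063). That is 1 of 9 genes higher, with 19% of all genes, and 2 of 9 lower, with 15.2% of all genes. At 100 pM for 18 h the called gene was CLDN8, higher by 2.86 ± 0.56 (7.24-fold, edgeR adjusted p = 0.015), while 6.57% of all genes were higher and 3.89% lower. Against 100 pM, 10 nM lowered TJP3 by 0.41 ± 0.12 (1.33-fold, edgeR adjusted p = 0.029), with 11.4% of all genes lower and 14.8% higher. The comparisons with vehicle at one time share the vehicle libraries, and those between doses share the treated ones.

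With replicate number in the fit as a block, 7 of the 9 genes were called for 10 nM against vehicle at 6 h and 7 at 18 h. At each time 2 of these were higher and 5 lower. The block called 62.4% of all genes at 6 h and 56% at 18 h. Between 10 nM and 100 pM the block gave 6 called genes at 6 h (59.3% of all genes) and 6 at 18 h (50.2%). For 100 pM against vehicle it gave 1 at 6 h (12.2% of all genes) and 5 at 18 h (34.1%). The blocked values stand with each gene below wherever a call changed.

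**Figure D1:**
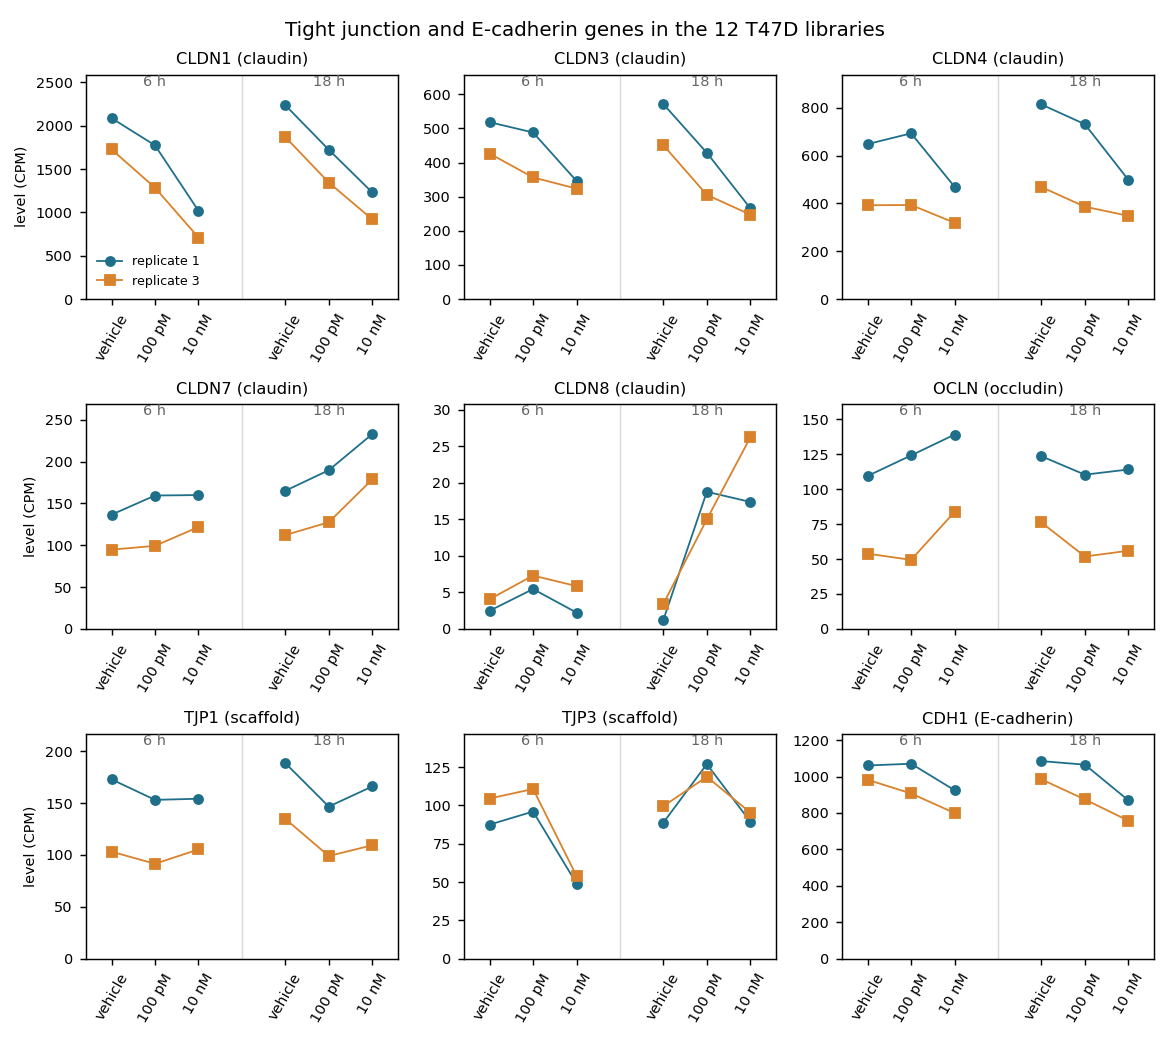
Level of each of the 9 genes in CPM (vertical axes, from 0) in the 12 libraries, by dose within each time. Circles are replicate 1 and squares replicate 3, and lines join libraries of the same replicate number. CLDN1 is lowest at 10 nM at both times, CLDN8 is highest in the 4 treated libraries at 18 h, and TJP3 is lowest in the 2 libraries of 10 nM at 6 h.

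CLDN1 is a barrier-forming claudin of skin and other epithelia. At 6 h it stood at 2087 and 1726 CPM in vehicle, 1773 and 1284 CPM at 100 pM, and 1018 and 709 CPM at 10 nM. By 18 h it stood at 2236 and 1869 CPM in vehicle, 1723 and 1344 CPM at 100 pM, and 1231 and 919 CPM at 10 nM. Within each replicate number CLDN1 was lower at each higher dose, and the 10 nM libraries lay below both vehicle and 100 pM libraries of their time. The 100 pM and vehicle libraries overlapped at 6 h and did not at 18 h. For 100 pM against vehicle the change was -0.32 ± 0.24 at 6 h (edgeR adjusted p = 0.82) and -0.42 ± 0.24 at 18 h (edgeR adjusted p = 0.33). With the block both were called lower, at -0.33 ± 0.07 (edgeR adjusted p = 0.0099) and -0.43 ± 0.07 (edgeR adjusted p = 0.00085). Between 10 nM and 100 pM at 18 h the change was -0.51 ± 0.24 (edgeR adjusted p = 0.16), and with the block -0.52 ± 0.07 (edgeR adjusted p = 0.0001). The fall at 10 nM against vehicle at 6 h was called whichever library of its groups was left out. At 18 h it was not called without vehicle replicate 1 (-0.80, edgeR adjusted p = 0.095) or without 10 nM replicate 3 (-0.75, edgeR adjusted p = 0.097). The difference between doses at 6 h was lost without 100 pM replicate 1 (-0.58, edgeR adjusted p = 0.14) or 10 nM replicate 3 (-0.57, edgeR adjusted p = 0.16).

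CLDN3 and CLDN4 encode the claudins that serve as receptors for Clostridium perfringens enterotoxin, and they lie next to each other on chromosome 7. CLDN3 was at 518 and 426 CPM in vehicle at 6 h, 488 and 356 CPM at 100 pM, and 346 and 324 CPM at 10 nM. After 18 h its levels were 571 and 451 CPM in vehicle, 429 and 305 CPM at 100 pM, and 266 and 247 CPM at 10 nM. The 10 nM libraries were below all vehicle and 100 pM libraries at each time, and the 100 pM libraries were below vehicle at 18 h but not at 6 h. The called fall at 10 nM for 18 h was kept without any library of its groups. At 6 h the change was -0.50 ± 0.21 (edgeR adjusted p = 0.084), and with the block -0.49 ± 0.09 (edgeR adjusted p = 0.00076). With the block CLDN3 was also lower at 10 nM than at 100 pM at 6 h (-0.32 ± 0.09, edgeR adjusted p = 0.012, against 0.24 without it) and at 18 h (-0.50 ± 0.09, edgeR adjusted p = 0.001, against 0.10 without it). For 100 pM against vehicle at 18 h it gave -0.49 ± 0.09 (edgeR adjusted p = 0.0021), where the fit without it gave -0.48 ± 0.21 (edgeR adjusted p = 0.19).

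CLDN4 had 648 and 392 CPM in vehicle, 693 and 393 CPM at 100 pM, and 469.8 and 319 CPM at 10 nM at 6 h. At 18 h it had 814 and 468 CPM in vehicle, 732 and 386 CPM at 100 pM, and 499 and 348 CPM at 10 nM. Replicate 3 was far below replicate 1 in every group, so the groups overlapped in all comparisons, and within each replicate number the 10 nM library was the lowest of its time. The change at 10 nM against vehicle was -0.40 ± 0.44 at 6 h (edgeR adjusted p = 0.5) and -0.60 ± 0.44 at 18 h (edgeR adjusted p = 0.33). With the block these were called, at -0.38 ± 0.09 (edgeR adjusted p = 0.0029) and -0.56 ± 0.09 (edgeR adjusted p = 0.0002). Against 100 pM the block called CLDN4 lower at 6 h (-0.43 ± 0.09, edgeR adjusted p = 0.0014, against 0.44 without it) and at 18 h (-0.35 ± 0.09, edgeR adjusted p = 0.0064, against 0.55 without it).

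CLDN7, a claudin found along the lateral membrane as well as at the tight junction, ran in the other direction. It stood at 137 and 94.7 CPM in vehicle, 159.5 and 99.3 CPM at 100 pM, and 160.1 and 122 CPM at 10 nM at 6 h. Levels at 18 h were 165 and 112 CPM in vehicle, 189.8 and 128 CPM at 100 pM, and 233 and 179 CPM at 10 nM. Within each replicate number the 10 nM library was the highest of its time, and at 18 h both 10 nM libraries lay above both vehicle libraries. The change at 10 nM against vehicle was 0.29 ± 0.32 at 6 h (edgeR adjusted p = 0.51) and 0.57 ± 0.32 at 18 h (edgeR adjusted p = 0.21). With the block CLDN7 was called higher at 6 h (0.30 ± 0.08, edgeR adjusted p = 0.0044), at 18 h (0.59 ± 0.07, edgeR adjusted p = 3.2e-05) and against 100 pM at 18 h (0.39 ± 0.07, edgeR adjusted p = 0.00089, against 0.43 without it).

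CLDN8, known from the collecting duct of the kidney as a claudin that limits the passage of cations, had few counts. They numbered 44 to 255 in the 6 h and vehicle libraries and 532 to 932 in the 4 treated libraries at 18 h. In CPM it stood at 2.47 and 4.05 in vehicle, 5.43 and 7.28 at 100 pM, and 2.21 and 5.84 at 10 nM at 6 h. After 18 h the levels were 1.23 and 3.41 CPM in vehicle, 18.7 and 14.98 CPM at 100 pM, and 17.4 and 26.2 CPM at 10 nM. The 4 treated libraries at 18 h were above all other 8 libraries, and the 2 doses overlapped there. The difference between 10 nM and 100 pM at 18 h was 0.37 ± 0.51 (edgeR adjusted p = 0.64). At 6 h both 100 pM libraries were above both vehicle libraries, with a change of 0.96 ± 0.54 (edgeR adjusted p = 0.61). The call for 10 nM at 18 h was kept without any library of its groups. The call for 100 pM at 18 h was lost without vehicle replicate 1 (2.30, edgeR adjusted p = 0.093) or 100 pM replicate 1 (2.69, edgeR adjusted p = 0.059).

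Promoter sequence is shown for called genes with an annotated start, leaving out bases that overlap an exon, so that the bases in front of the genes that changed can be read beside their values. The windows come from RefSeq (build GRCh38.p14), which matched 7 of the 9 genes with 13 start sites, and each is given 5′ to 3′ on the strand of the gene. Capitals mark the GC box (GGGCGG or CCGCCC on the strand shown) and the E-box CAGGTG or CACCTG, the form bound by SNAI and ZEB repressors. For CLDN1 the stretch is chr3:190322476-190322696 on the minus strand and ends 30 bases before the start. For CLDN3 it is chr7:73770271-73770520 on the minus strand, and for TJP3 chr19:3721487-3721736 on the plus strand, both up to the base before the start.
CLDN1: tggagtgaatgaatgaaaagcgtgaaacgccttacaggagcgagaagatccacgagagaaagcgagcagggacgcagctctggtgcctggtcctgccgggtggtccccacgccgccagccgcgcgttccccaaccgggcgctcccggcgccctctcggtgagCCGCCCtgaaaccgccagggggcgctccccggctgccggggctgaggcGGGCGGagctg
CLDN3: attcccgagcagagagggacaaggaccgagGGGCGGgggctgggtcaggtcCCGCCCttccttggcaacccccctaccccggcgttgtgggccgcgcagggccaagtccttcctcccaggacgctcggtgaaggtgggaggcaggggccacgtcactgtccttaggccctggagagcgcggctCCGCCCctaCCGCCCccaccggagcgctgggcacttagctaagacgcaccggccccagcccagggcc
TJP3: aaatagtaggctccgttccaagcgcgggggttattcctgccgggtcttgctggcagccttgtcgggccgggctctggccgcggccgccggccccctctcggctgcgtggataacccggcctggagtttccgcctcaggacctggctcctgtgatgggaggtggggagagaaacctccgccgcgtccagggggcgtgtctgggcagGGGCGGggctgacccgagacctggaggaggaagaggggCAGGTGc
The 250 bases before the start held 2 GC boxes for CLDN1 and 4 for CLDN3, and neither window held the E-box. At this TJP3 start there was 1 GC box and an E-box CAGGTG 7 bases before the start. For comparison, 42.64% of 35116 human promoter windows of this length held a GC box and 17.49% held the E-box on either strand. The hexamer TGTTCT or AGAACA, the core of the hormone response element, was in 12.39% of windows, and among the 13 windows in 1, at a TJP1 start. CLDN8, the gene called higher, and CDH1 had no window, so their promoters were not examined for any of these motifs. The CLDN7 window with the highest number of these E-boxes had 4, and all of its 250 bases overlapped exons on the same strand. The other CLDN7 window had 0. Each of the 2 OCLN windows also had 1 of these E-boxes, and so did 1 TJP1 window. The 17.49% counts windows with at least 1 match, whatever their number. A match is a description of these letters and not a bound site, and no binding was measured.

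OCLN, a membrane protein of the tight junction strands, differed more between replicate numbers than between doses. At 6 h it had 109.5 and 53.8 CPM in vehicle, 124 and 49.4 CPM at 100 pM, and 139 and 83.8 CPM at 10 nM. At 18 h it had 124 and 76.2 CPM in vehicle, 110.4 and 51.8 CPM at 100 pM, and 114 and 55.9 CPM at 10 nM. All groups overlapped, and the changes were between -0.30 ± 0.59 (100 pM at 18 h) and 0.45 ± 0.59 (10 nM at 6 h) against vehicle, with none called. With the block OCLN was higher at 10 nM for 6 h than in vehicle (0.49 ± 0.13, edgeR adjusted p = 0.0076, against 0.58 without it) and than at 100 pM (0.45 ± 0.13, edgeR adjusted p = 0.013, against 0.67 without it). The genome also holds OCLNP1, a partial copy of OCLN, and how reads shared with it were counted is not given, so the OCLN values are uncertain.

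TJP1 (ZO-1) and TJP3 (ZO-3) are scaffolds of the same family. TJP1 was at 173 and 103 CPM in vehicle, 153 and 91.5 CPM at 100 pM, and 154 and 105 CPM at 10 nM at 6 h. Its 18 h levels were 189 and 135 CPM in vehicle, 147 and 99.0 CPM at 100 pM, and 166 and 109 CPM at 10 nM. Groups overlapped throughout, and no change in TJP1 was called. At 18 h the change was -0.40 ± 0.37 for 100 pM against vehicle (edgeR adjusted p = 0.57) and -0.23 ± 0.37 for 10 nM (edgeR adjusted p = 0.67). With the block both were called lower, at -0.41 ± 0.07 (edgeR adjusted p = 0.0011) and -0.24 ± 0.07 (edgeR adjusted p = 0.012).

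In the fit without the block TJP3 had the smallest SE of the 9 genes in these comparisons. With the block it did not, with 0.080 against 0.062 for CDH1 at 10 nM against vehicle at 6 h. The level of TJP3 was 87.5 and 105 CPM in vehicle, 96.0 and 111 CPM at 100 pM, and 49.0 and 54.0 CPM at 10 nM at 6 h. By 18 h it had 88.8 and 99.6 CPM in vehicle, 127 and 119 CPM at 100 pM, and 89.4 and 95.4 CPM at 10 nM. The 10 nM libraries at 6 h lay below all other 10 libraries, and the 100 pM libraries at 18 h lay above all others. At 10 nM for 18 h the change against vehicle was -0.03 ± 0.12 (edgeR adjusted p = 0.88). For 100 pM at 18 h it was 0.38 ± 0.12 (edgeR adjusted p = 0.07), with the block 0.39 ± 0.08 (edgeR adjusted p = 0.0023), and DESeq2 called it at 0.41 (adjusted p = 0.019). Both falls at 6 h were called whichever library of their groups was left out. The fall at 10 nM against 100 pM at 18 h was lost without any 1 of its 4 libraries, namely 100 pM replicate 1 (-0.36, edgeR adjusted p = 0.12), 100 pM replicate 3 (-0.46, edgeR adjusted p = 0.068), 10 nM replicate 1 (-0.37, edgeR adjusted p = 0.15) and 10 nM replicate 3 (-0.48, edgeR adjusted p = 0.062).

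CDH1, whose product is the calcium-dependent adhesion protein of epithelial cells, was not called at either dose by the fit without the block. At 6 h it stood at 1061 and 982 CPM in vehicle, 1071 and 907 CPM at 100 pM, and 925 and 799.7 CPM at 10 nM. At 18 h it stood at 1085 and 985 CPM in vehicle, 1065 and 874 CPM at 100 pM, and 869.7 and 758 CPM at 10 nM. The 10 nM libraries were below both vehicle libraries at each time. The change was -0.24 ± 0.14 at 6 h (edgeR adjusted p = 0.19) and -0.35 ± 0.14 at 18 h (edgeR adjusted p = 0.086). With the block both were called, at -0.25 ± 0.06 (edgeR adjusted p = 0.0042) and -0.35 ± 0.06 (edgeR adjusted p = 0.00046). Against 100 pM the block called CDH1 lower at 6 h (-0.20 ± 0.06, edgeR adjusted p = 0.017, against 0.3 without it) and at 18 h (-0.25 ± 0.06, edgeR adjusted p = 0.0053, against 0.22 without it). Scaling by library size alone moved the median of all genes by -0.14 at 6 h. Under it CDH1 was called lower at 6 h (-0.38, edgeR adjusted p = 0.038) and 18 h (-0.43, edgeR adjusted p = 0.031), and CLDN3 at 6 h (-0.64, edgeR adjusted p = 0.027).

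**Figure D2:**
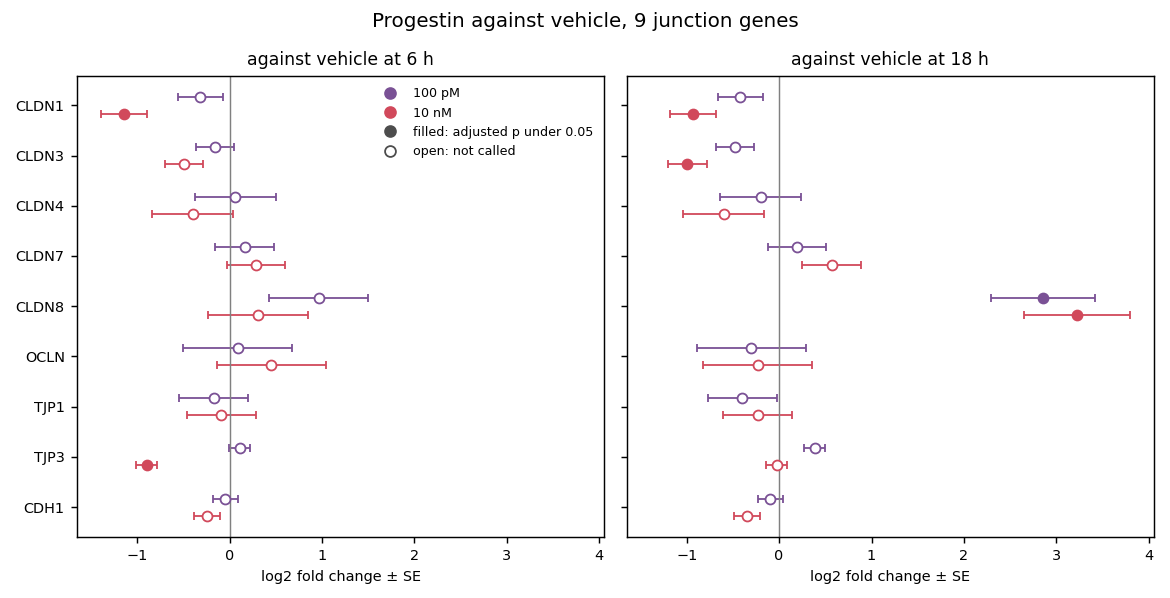
Log2 fold change ± SE (horizontal axes) of each gene for 100 pM and 10 nM progestin against vehicle at 6 h (left) and 18 h (right), from the fit without a block. Filled points are called. CLDN8 is called at both doses at 18 h, CLDN1 at 10 nM at both times, TJP3 at 10 nM at 6 h and CLDN3 at 10 nM at 18 h.

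Over time, edgeR called CLDN8 and TJP3 at 10 nM and none of the 9 in the other groups. In vehicle, none of the 9 was called between 18 h and 6 h by edgeR, DESeq2 or the block, and none had an unadjusted p under 0.05, with 0% of all genes called (0.0288% with the block). At 100 pM none was called by edgeR or DESeq2 (1.18% of all genes), 1 had an unadjusted p under 0.05, and the block called 3, with 22.2% of all genes. Those 3 were CLDN7 (0.30 ± 0.07, edgeR adjusted p = 0.013), CLDN8 (1.47 ± 0.33, edgeR adjusted p = 0.014) and TJP3 (0.26 ± 0.08, edgeR adjusted p = 0.035), and all were higher at 18 h. Without the block their adjusted p was 0.7, 0.23 and 0.33 in edgeR.

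At 10 nM, CLDN8 was higher at 18 h than at 6 h by 2.43 ± 0.54 (5.41-fold, edgeR adjusted p = 0.013) and TJP3 by 0.84 ± 0.12 (1.79-fold, edgeR adjusted p = 0.0016), while 11.4% of all genes were higher. The CLDN8 call was lost without 10 nM 6 h replicate 1 (1.90, edgeR adjusted p = 0.076) or 10 nM 18 h replicate 3 (2.11, edgeR adjusted p = 0.064). With the block 6 of the 9 were called, as were 49.2% of all genes. Beside these genes the block called CLDN1 (0.32 ± 0.07, edgeR adjusted p = 0.0033, against 0.39 without it) and CLDN7 (0.55 ± 0.07, edgeR adjusted p = 9.6e-05, against 0.25 without it) higher at 18 h. It called CLDN3 (-0.38 ± 0.09, edgeR adjusted p = 0.0056, against 0.21 without it) and OCLN (-0.44 ± 0.13, edgeR adjusted p = 0.019, against 0.68 without it) lower at 18 h.

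Whether a dose acted differently at the 2 times was tested as the change against vehicle at 18 h minus that at 6 h. For 10 nM this difference was 2.92 ± 0.77 for CLDN8 (edgeR adjusted p = 0.047) and 0.87 ± 0.16 for TJP3 (edgeR adjusted p = 0.015), with 4.55% of all genes called in that direction. CLDN8 was 0.30 ± 0.54 at 6 h and 3.23 ± 0.57 at 18 h, and TJP3 was -0.90 ± 0.12 at 6 h and -0.03 ± 0.12 at 18 h. The remaining 7 genes had differences from -0.68 ± 0.84 (OCLN) to 0.28 ± 0.45 (CLDN7). With the block 4 genes were called (35.1% of all genes), the others being CLDN3 (-0.49 ± 0.13, edgeR adjusted p = 0.014, against 0.33 without it) and OCLN (-0.78 ± 0.18, edgeR adjusted p = 0.0092, against 0.66 without it). For 100 pM none of the 9 was called by edgeR, DESeq2 or the block, and 1 had an unadjusted p under 0.05. Of all genes 0.0144% were called without the block and 5.6% with it. The CLDN8 difference for 100 pM was 1.89 ± 0.76 (edgeR adjusted p = 0.67).

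**Figure D3:**
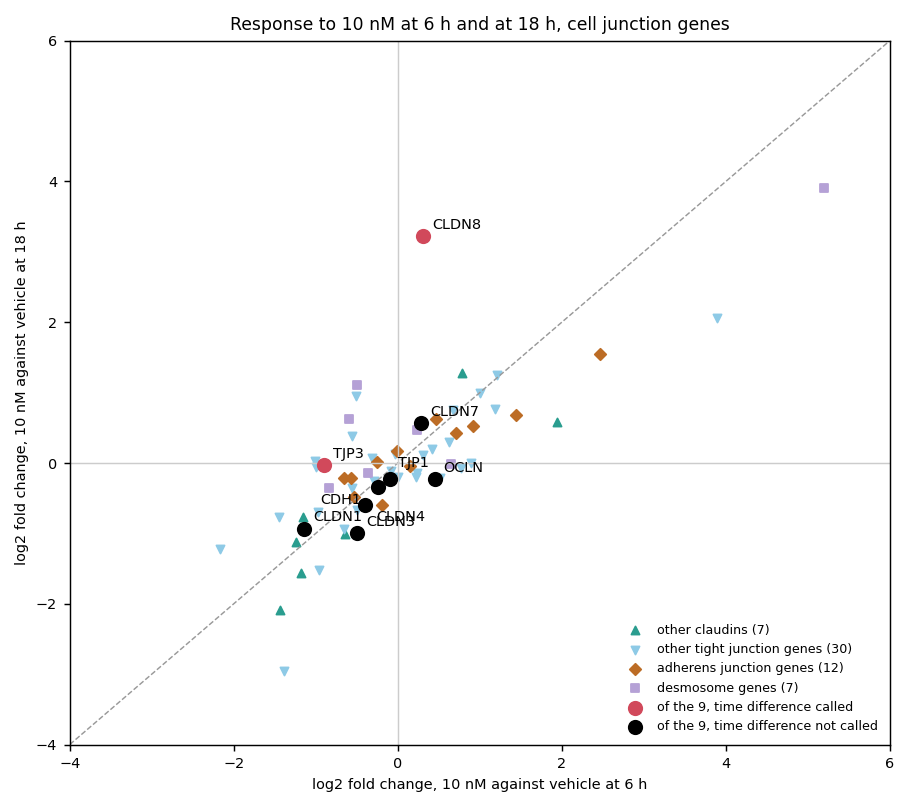
Log2 fold change of 10 nM against vehicle at 6 h (horizontal axis) and at 18 h (vertical axis) for the 9 genes (large points, named) and for other cell junction genes (small symbols). The dashed line marks equal change. CLDN8 and TJP3, in red, lie above the line, and DSG3 is not drawn because it had no count in vehicle.

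The replicate number went with a difference in most of these genes. In the fit with the block, 7 of the 9 were called lower in replicate 3 than in replicate 1, with 24.3% of all genes lower and 22.8% higher. The log2 differences were -0.98 for OCLN, -0.72 for CLDN4, -0.62 for TJP1, -0.52 for CLDN7, -0.38 for CLDN1, -0.30 for CLDN3 and -0.20 for CDH1. Each of these 7 was lower in replicate 3 in 6 of 6 groups. CLDN8 was higher in replicate 3 by 0.57 and TJP3 by 0.13, each in 5 of 6 groups. Counts of the 13 genes of the mitochondrial genome made up 8.59% to 10.8% of each replicate 3 library and 6.69% to 8.29% of each replicate 1 library. Its part in these differences was not tested.

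**Figure D4:**
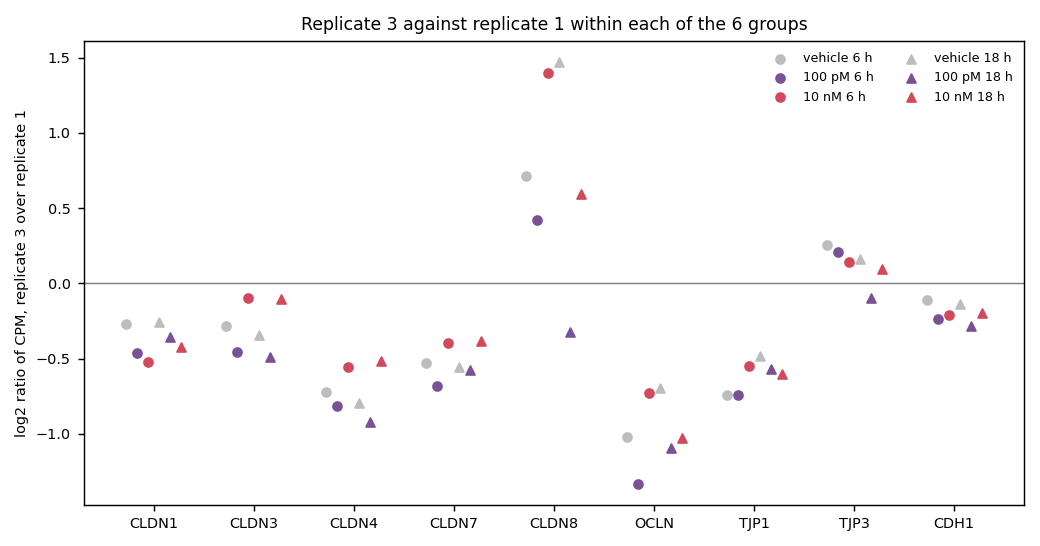
Log2 ratio of CPM in replicate 3 over replicate 1 (vertical axis) for each of the 9 genes within each of the 6 groups. OCLN, CLDN4, TJP1, CLDN7, CLDN1, CLDN3 and CDH1 lie below 0 in 6 of 6 groups, and CLDN8 and TJP3 above 0 in 5 of 6.

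Levels can be compared between genes only per length of transcript. Lengths were those of the principal transcripts of GENCODE on build GRCh38, while the counts were made on hg19, so the values are approximate. In vehicle at 6 h CLDN1 had 548 ± 73.2 CPM per kb and CLDN3 371 ± 51.1, the highest and next highest of the 9, and CDH1 had 209 ± 11.4 (SD, n = 2 each). CLDN4 had 125 or 284 CPM per kb, by the longest or the shortest of its principal transcripts, so its place beside CDH1 is not fixed. CLDN7 followed with 75.0 or 94.2. TJP3 had 28.7 ± 3.60 CPM per kb, TJP1 17.4 ± 6.21 and CLDN8 1.58 ± 0.54, the lowest, and OCLN had 12.7 or 46.7.

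At 10 nM for 6 h the order at the top changed, with CLDN3 at 263 ± 12.5 CPM per kb and CLDN1 at 248 ± 62.7 (SD, n = 2 each), a difference smaller than the spread of CLDN1. TJP3, at 15.4 ± 1.05 CPM per kb, was then at the level of TJP1, with 16.3 ± 4.35. At 10 nM for 18 h CLDN1 had 309 ± 63.2 CPM per kb and CLDN3 202 ± 10.4. CLDN8 had 10.5 ± 3.02 CPM per kb there and was still the lowest of the 9.

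Over the 12 libraries, the genes closest to each other in log2 CPM were CLDN3 and CDH1 (r = 0.92), OCLN and TJP1 (r = 0.90) and CLDN1 and CDH1 (r = 0.90). CLDN3 and CLDN8 ran most nearly opposite (r = -0.74). TJP1 and TJP3 had r = -0.19, and the neighbours CLDN3 and CLDN4 had r = 0.74. These values describe 12 libraries that share dose, time and replicate number. All of the genes but CLDN8 and TJP3 share the drop in replicate 3, which was largest in OCLN, CLDN4 and TJP1. The gene outside the group closest to CLDN1 was PLEKHA4 (r = 0.99), then BACH1 (0.99), and for CLDN3 SLC9A7 (0.98), then TRIP6 (0.97). For CLDN4 these were CD63 (r = 0.99) and FTL (0.98), for CLDN7 HMGCS1 (0.97) and WBP2 (0.96), and for CLDN8 STXBP3 (0.96) and FASN (0.94). For OCLN they were ATP6V1C1 (r = 0.97) and C6orf48 (0.96), and for TJP1 SUN1 (0.97). TJP3 had GRB7 (r = 0.98) and FAM129A (0.97), and CDH1 had METRNL (0.98) and SRCAP (0.98).

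Other genes of the junction also moved at 10 nM, in both directions. Their counts stand beside 22.6% of all genes called higher and 19.4% lower at 6 h, and 19% higher and 15.2% lower at 18 h. Of 16 other claudins 7 could be tested. At 6 h CLDN12 (0.78 ± 0.07) and CLDN15 (1.95 ± 0.25) rose and 2 fell, among them CLDN16 (-1.17 ± 0.15), the neighbour of CLDN1 on chromosome 3. At 18 h CLDN12 (1.27 ± 0.08) rose and 2 fell, among them CLDN16 (-1.56 ± 0.15). CLDN12 was at 124 and 110.2 CPM at 10 nM for 18 h, against 48.7 and 48.1 CPM in vehicle, and CLDN16 was at 7.09 and 5.62 CPM against 17.1 and 20.3 CPM. With the block 7 of these claudins were called at 6 h and 6 at 18 h, where the fit without it called 4 and 3. At 100 pM for 6 h none of the 7 was called by edgeR, DESeq2 or the block, and none had an unadjusted p under 0.05.

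Of 30 tested membrane, scaffold and polarity genes of the tight junction, 9 rose and 10 fell at 10 nM for 6 h, and 6 rose and 7 fell at 18 h (25 called with the block at 6 h and 20 at 18 h). The median changes were -0.06 at 6 h and -0.06 at 18 h, with -0.02 and 0.00 over all genes tested. Cingulin (CGN), a cytoplasmic plaque protein that binds zonula occludens scaffolds, rose by 1.0 ± 0.10 at 6 h (edgeR adjusted p = 0.00012) and 0.99 ± 0.10 at 18 h (edgeR adjusted p = 0.00015). It had 498 and 554 CPM at 10 nM for 6 h, against 264 and 261 CPM in vehicle. At 100 pM for 18 h CGN fell by 0.66 ± 0.10 (edgeR adjusted p = 0.0053). Falls at 6 h included INADL (-1.45 ± 0.12), a PDZ protein of the Crumbs polarity complex, IGSF5 (-2.16 ± 0.21), a junctional adhesion molecule, and MAGI3 (-0.99 ± 0.11), a PDZ scaffold. At 18 h they included JAM2 (-2.96 ± 0.31), another junctional adhesion molecule, and PRKCI (-0.66 ± 0.09), the atypical protein kinase C of cell polarity. At 100 pM for 6 h edgeR called none of the 30, with 5 at an unadjusted p under 0.05, 2 by DESeq2 and 5 with the block.

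Among 12 other genes listed for the adherens junction, 5 rose and 3 fell at 10 nM for 6 h (22.6% and 19.4% of all genes). At 18 h 5 rose and 2 fell (19% and 15.2% of all genes). The list held catenins, VCL, nectins, MLLT4, the cadherin CDH3 and EPCAM. Vinculin (VCL), which links cadherin complexes to actin, had 1536 and 1589 CPM at 10 nM for 6 h, against 308 and 257 CPM in vehicle (2.47 ± 0.18, edgeR adjusted p = 2e-05). At 18 h it rose by 1.54 ± 0.18 (edgeR adjusted p = 0.00027). CTNND1, the p120 catenin that holds E-cadherin at the membrane, had 2090 and 1897 CPM at 10 nM for 6 h, against 723 and 744 CPM in vehicle (1.44 ± 0.12, edgeR adjusted p = 3.4e-05). At 18 h the rise was 0.69 ± 0.12 (edgeR adjusted p = 0.0022). The nectin PVRL2 (0.91 ± 0.11) and its binding partner MLLT4 (0.71 ± 0.13) also rose at 6 h, and alpha-catenin CTNNA1 rose at 18 h (0.63 ± 0.13). Falls included the nectin PVRL1 at 10 nM against vehicle at 18 h (-0.59 ± 0.13, edgeR adjusted p = 0.007). JUP was lower at 10 nM than at 100 pM at 6 h (-0.62 ± 0.12, edgeR adjusted p = 0.0042). At 100 pM for 6 h edgeR called none of the 12, DESeq2 none, and 1 had an unadjusted p under 0.05.

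Of 8 tested desmosome genes, 2 rose and 3 fell at 10 nM for 6 h (22.6% and 19.4% of all genes). At 18 h 4 rose and none fell (19% and 15.2% of all genes). With the block 3 rose and 4 fell at 6 h, and 5 rose and 1 fell at 18 h. At 100 pM edgeR called 1 lower at 6 h (0.606% of all genes) and 1 lower at 18 h (3.89%). DSG2 was among those that fell at 6 h (-0.60 ± 0.16) and those that rose at 18 h (0.63 ± 0.16). Plakophilin PKP1 had 120 and 191 counts at 10 nM for 6 h, against 3 and 6 in vehicle, and desmoplakin (DSP) fell by 0.84 ± 0.18 (edgeR adjusted p = 0.0058). DSG3, a desmosomal cadherin, had 37 and 44 counts at 10 nM for 18 h and none in the vehicle libraries.

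**Figure D5:**
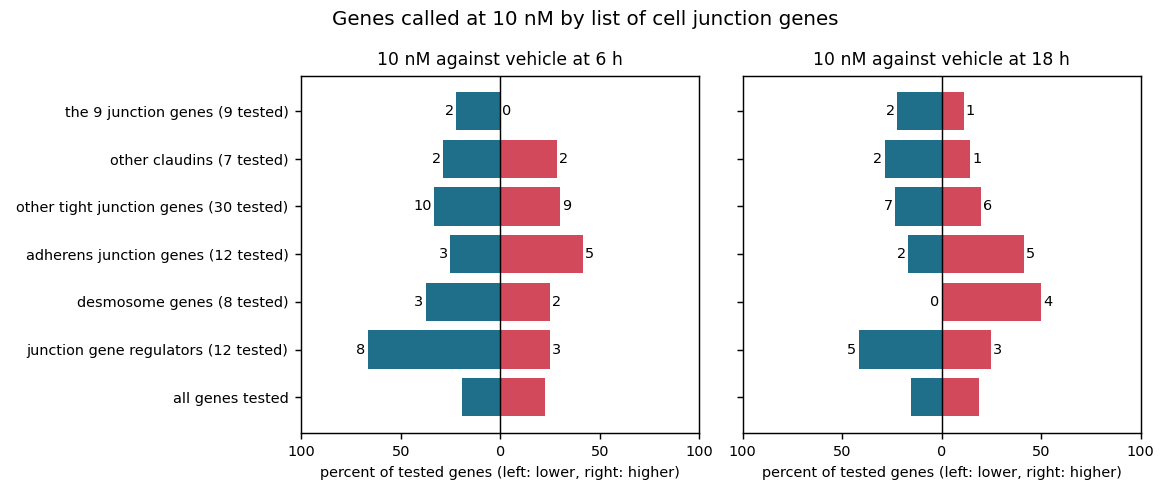
Percent of tested genes called lower (left of 0) and higher (right of 0) at 10 nM against vehicle at 6 h and 18 h, for the 9 genes, lists of other junction genes and all genes tested, with the number of genes beside each bar. At 6 h 8 of the 12 regulators fell and 3 rose (19.4% and 22.6% of all genes). At 18 h 4 of the 8 desmosome genes rose (19% of all genes). The lists were chosen with earlier results of these data known.

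Of 12 tested factors known to control epithelial junction genes, 3 rose and 8 fell at 10 nM for 6 h, and 3 rose and 5 fell at 18 h. Over all genes, 22.6% were higher and 19.4% lower at 6 h, and 19% higher and 15.2% lower at 18 h. The median change of the 12 at 6 h was -1.12, with -0.02 over all genes. This list was chosen with earlier results of these data known, so the contrast describes these 12 genes only. Of the regulators that fell at 6 h, those with the smallest adjusted p were ESRP1 (-0.94 ± 0.07), a splicing factor of epithelial cells, and the ETS factors EHF (-2.88 ± 0.23) and ELF5 (-1.68 ± 0.15). ESRP1 is also listed among the luminal epithelial markers, so its fall at 6 h is counted in both lists. TWIST1 (-3.12 ± 0.34) and GRHL3 (-2.99 ± 0.58), the second of these chosen after its values were seen, fell by more on the log2 scale. EHF and ELF5 were higher at 100 pM than in vehicle in both libraries at 6 h and at 18 h. In CPM, EHF at 6 h had 276 and 391 in vehicle, 549 and 724 at 100 pM, and 41.1 and 49.4 at 10 nM. ELF5 at 6 h had 314 and 351 in vehicle, 471 and 558 at 100 pM, and 108 and 99.6 at 10 nM. ESRP1, TWIST1 and GRHL3 had lower mean levels at 100 pM than in vehicle at 6 h. Grainyhead-like factor GRHL2, an activator of CDH1 and CLDN4 in epithelia, rose by 1.19 ± 0.08 at 6 h (edgeR adjusted p = 1.1e-05) and 1.10 ± 0.08 at 18 h (edgeR adjusted p = 2.2e-05). It also rose at 100 pM, by 1.58 ± 0.08 at 6 h (edgeR adjusted p = 5.8e-05) and 0.69 ± 0.08 at 18 h (edgeR adjusted p = 0.0013). In the same 6 h libraries CLDN4 and CDH1 had changes of 0.06 ± 0.44 and -0.05 ± 0.14 at 100 pM, and neither was called. The SE of CLDN4 was wide in this fit. With the block the changes were 0.05 ± 0.09 for CLDN4 and -0.05 ± 0.06 for CDH1, and again neither was called. Whether GRHL2 or any other listed regulator acted on CLDN4, CDH1 or other junction genes was not tested. SNAI1, a repressor of CDH1 that was chosen after its values were seen, had 127 and 143 counts at 10 nM for 6 h, against 12 and 21 in vehicle (3.15 ± 0.40, edgeR adjusted p = 0.00031). TWIST1, another repressor of CDH1, went the other way, with 16 and 21 counts at 10 nM for 6 h, against 161 and 193 in vehicle, and it also fell at 18 h (-2.73 ± 0.33, edgeR adjusted p = 0.00034).

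Mesenchymal markers were lower in sum at both doses. At 6 h their summed level was 309.8 to 316 CPM in vehicle, 293 to 300.8 CPM at 100 pM and 241 to 250.3 CPM at 10 nM. At 18 h it was 316 to 329.9 CPM in vehicle, 214 to 223 CPM at 100 pM and 139.9 to 163 CPM at 10 nM. Of 9 tested, 1 rose and 1 fell at 10 nM for 6 h, with 22.6% of all genes higher and 19.4% lower. With the block 5 were called there, with 62.4% of all genes. At 10 nM for 18 h 4 fell, with 15.2% of all genes lower. Given 100 pM, 2 fell by 18 h (3.89% of all genes), and the block called 4 (34.1% of all genes). At 100 pM for 6 h none was called by edgeR, DESeq2 or the block or had an unadjusted p under 0.05. Most of the sum came from fibronectin FN1 (-1.47 ± 0.12 at 10 nM for 18 h) and collagen COL1A1 (-0.63 ± 0.10 in the same comparison). Of the 8 luminal epithelial markers, 1 rose and 4 fell at 10 nM for 6 h (22.6% and 19.4% of all genes). At 18 h 1 rose and 3 fell (19% and 15.2% of all genes). The keratin KRT18 fell at both times (-1.0 ± 0.11 at 6 h and -1.35 ± 0.11 at 18 h). Their part in the values of the 9 genes was not tested.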

How the data were processed

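The deposited table held whole-number counts of reads per gene symbol, made by the authors from total RNA (Nextera libraries, per the labels). The submitters' processing notes name STAR, DESeq2 and hg19, with no role or version. Which counter, annotation and strand setting were used is not given in the sources used here. All 12 columns were used, and 2709 of 20114 symbols had no count.

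These counts were analysed in R 4.3.3 with edgeR 4.0.16 and, as an alternative, DESeq2 1.42.0. After filterByExpr over the 6 groups and TMM scaling, genes were tested with edgeR's quasi-likelihood F test in 1 fit over 12 libraries, with Benjamini-Hochberg adjustment over all 13872 genes tested and no fold threshold. The SE is the absolute log2 fold change over the square root of F. The script was tested on simulated data. The 9 genes and all lists were chosen with earlier results of these data known. Text names all 9, and from each other list up to 4 called genes with the smallest adjusted p at 10 nM, plus SNAI1 and GRHL3. For likeness, genes had an average log2 CPM of at least 2. The next gene for TJP1 is not reported here.

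Deviations from the group mean correlated between libraries of the same replicate number in all 15 pairs of groups (r = 0.464 to 0.677, median 0.558), so the numbers pair the libraries. The labels do not say what the numbers share, so the block is an alternative, under which the biological coefficient of variation was 0.0678, against 0.163 without it. The fit without the block leaves this pairing out and counts it as spread. A gene not called there is therefore not shown to be unchanged. Chi-square per degree of freedom between libraries of a group was 42.6 to 63.9, well beyond repeated sequencing of 1 library. Alternatives were the block, DESeq2, other scaling, other filters, each time alone, and each library left out.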

Additional observations from a re-analysis of the deposited data

Results flagged for a closer look

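The response to 10 nM against vehicle differed between times in 2 of the 9 genes by the test of the difference itself. For CLDN8, a claudin with few counts, the change at 18 h minus that at 6 h was 2.92 ± 0.77 on the log2 scale (edgeR adjusted p = 0.047). Its 10 nM libraries had 17.4 and 26.2 CPM at 18 h and 2.21 and 5.84 CPM at 6 h, while vehicle had 1.23 and 3.41 CPM at 18 h and 2.47 and 4.05 CPM at 6 h. The call was lost when any 1 of 6 of the 8 libraries was left out, all but vehicle 18 h replicate 3 and 10 nM 6 h replicate 3 (log2 difference 2.37 to 3.23, edgeR adjusted p = 0.067 to 0.16), and with no filter on low counts (2.91, edgeR adjusted p = 0.06).

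For TJP3, the ZO-3 scaffold, the difference was 0.87 ± 0.16 (edgeR adjusted p = 0.015). Its 10 nM libraries had 89.4 and 95.4 CPM at 18 h and 49.0 and 54.0 CPM at 6 h, while vehicle had 88.8 and 99.6 CPM at 18 h and 87.5 and 105 CPM at 6 h. The call was lost without vehicle 6 h replicate 3, 10 nM 6 h replicate 1, vehicle 18 h replicate 1 or 10 nM 18 h replicate 3 (0.74 to 0.82, edgeR adjusted p = 0.054 to 0.064). With the block both differences were called, at 2.98 ± 0.55 for CLDN8 (edgeR adjusted p = 0.0031) and 0.87 ± 0.11 for TJP3 (edgeR adjusted p = 0.00015).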

How the results depend on the processing

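With replicate number as a block, the count of called genes among the 9 was 1 and 7 for 100 pM and 10 nM against vehicle and 6 for 10 nM against 100 pM at 6 h, and 5, 7 and 6 in the same comparisons at 18 h. Over time it was 3 at 100 pM and 6 at 10 nM, and 4 for the difference between times at 10 nM. The block changed no other count of the 9 and no call without it was lost. DESeq2 called 2 at 100 pM for 18 h, scaling by library size alone called 4 at 10 nM for 6 h, and with no filter 1 difference between times at 10 nM was called. Over all genes, 100 pM called 483 genes at 6 h (DESeq2 835, block 1696) and 1450 at 18 h (DESeq2 2199, block 4728).

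When each library was left out in turn, the count was 0 to 0 for 100 pM and 2 to 2 for 10 nM against vehicle and 1 to 2 for 10 nM against 100 pM at 6 h, and 0 to 1, 2 to 3 and 0 to 0 at 18 h. It was 1 to 2 for time at 10 nM and 0 to 2 for the difference between times at 10 nM. No called change of the 9 genes turned its direction under any alternative run. The cause of these losses was not tested, beyond the loss of a library itself. Of 602 alternative values of the other named junction and marker genes, 33 lost their call and none turned direction.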
